A study of Mus musculus with 15 samples.

Results

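The D-type cyclins Ccnd1, Ccnd2 and Ccnd3, their kinases Cdk4 and Cdk6, the inhibitors Cdkn1b, Cdkn1c, Cdkn2a and Cdkn2c, and the neuronal cell cycle exit gene Cend1 were followed through 5 groups of mouse neural progenitor cells. They are 10 of 34989 annotated genes to which the transcripts of the count table were summed. The list was chosen from earlier results of the same libraries. Cend1 had stood out there by a higher level in shLINE_Orf1 than in shControl, and for the other 9 genes no earlier value is on record. For Cend1 that contrast is therefore given as a description with no test.

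All cells were wild type by genotype, grew with FGF2, EGF and heparin, and received plasmids for EGFP and for an shRNA, a hairpin that targets transcripts sharing its sequence. GFP-positive cells were sorted after 3 days. The groups, of 3 libraries each, were shLINE_Orf1+LINE-1 (the Orf1 shRNA with a full-length LINE-1 added), shLINE_MdV_I, shLINE_Orf2, shLINE_Orf1 and shControl. LINE-1 is a family of genomic repeats that move by way of an RNA copy. Per the design text some shRNAs were directed at young and some at old elements, and the added LINE-1 went with the shRNA against young ones. The labels do not say which age shLINE_Orf2 and shLINE_MdV_I target. LINE-1 RNA was not analysed here, so how far it was lowered in any library is not given. Nothing in the labels says that replicates were separate cultures, so the p-values reflect the variation among these libraries alone, and that variation may be technical.

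In the G1 phase a D-type cyclin binds Cdk4 or Cdk6, and the complex phosphorylates the retinoblastoma protein (Rb), which frees E2F factors to switch on genes of DNA replication. Ink4 proteins, encoded by Cdkn2a and Cdkn2c among others, block these kinases, while the Kip proteins encoded by Cdkn1b and Cdkn1c bind a wider set of cyclin and kinase complexes. In the developing mouse brain this balance sets whether a progenitor divides again or leaves the cycle to become a neuron, and Cend1 (also called BM88) promotes that exit.

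The libraries held between 39209073 and 51075910 counts on genes. CPM below is the count per 1000000 of the scaled library size. Of the progenitor markers, Sox2 averaged 203 CPM, Nes 363 CPM and Pax6 18.6 CPM in shControl (n = 3). Genes listed for other cell types were also present there, with the neuronal Map2 at 400 CPM and Dcx at 6.06 CPM, the astrocytic Slc1a3 at 2154 CPM and Olig1 of the oligodendrocyte lineage at 2290 CPM. The 5 microglial markers summed to between 0.764 and 2.31 CPM in a library, with Aif1 at 0 in every one and Cx3cr1 and Tmem119 at no more than 0.104 CPM. Csf1r reached 0.667 CPM, and P2ry12 was at 0.241 to 0.708 CPM in shLINE_Orf2, against 1.24 to 1.73 CPM in shControl (log2 fold change -1.78 ± 0.42, adjusted p = 0.135 in edgeR's test). Of the 15 libraries, shLINE_Orf1 replicate 1 and shControl replicate 2 stood apart, at 75.9 and 24.3 on the first principal component against -18.9 to 4.72 for the others. Genes of the mitochondrial genome took 3.61% and 2.02% of their counts, against 1.36% to 1.97% in the others. Gene levels in these libraries also ran against transcript length, with Spearman correlations between a gene's deviation and its exonic length of -0.41 in shLINE_Orf1 replicate 1 and -0.39 in shControl replicate 2, across 15147 genes, which are not independent replicates. In shControl replicate 1 that correlation was 0.37.

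**Figure D1:**
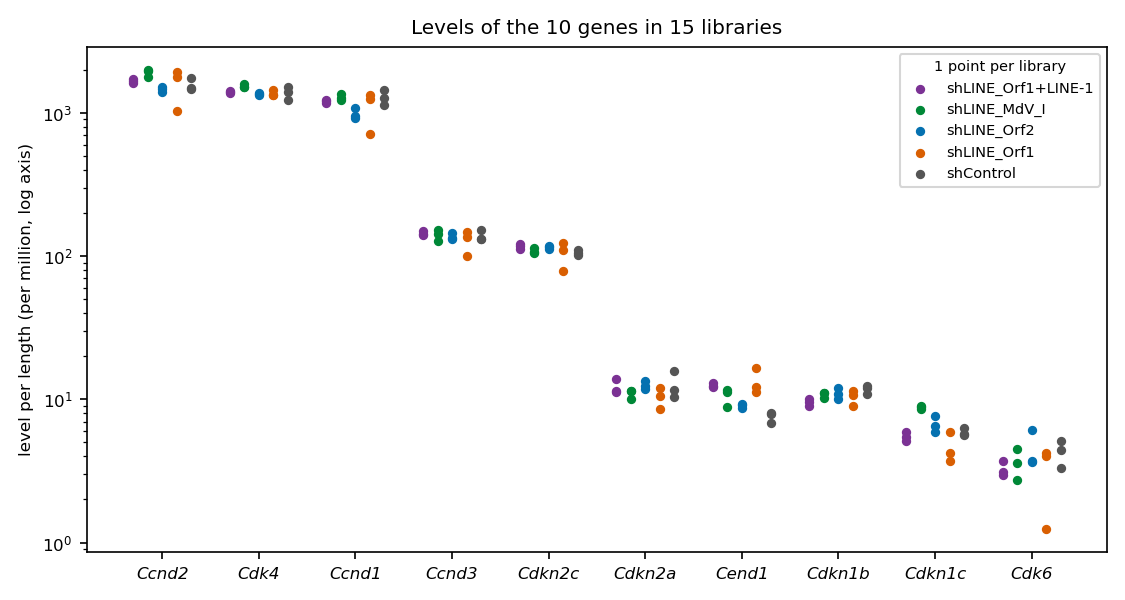
Level per length of the 10 genes (per 1000000, log axis), 1 point per library, coloured by group, with genes ordered by their median. Ccnd2, Cdk4 and Ccnd1 form an upper band, Ccnd3 and Cdkn2c lie between 78.3 and 153, and the other 5 genes lie between 1.23 and 16.5.

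To set genes side by side, each transcript's count was divided by its length and scaled to a sum of 1000000 per library. On this level per length the kinase Cdk4 and the cyclins Ccnd1 and Ccnd2 were the most abundant members by about an order of magnitude. The median over 15 libraries was 1660 for Ccnd2, 1390 for Cdk4 and 1227 for Ccnd1. The place of Ccnd2 above Ccnd1 rests on short transcripts, which weigh more per length. In shControl replicate 1, Ccnd2-206 (627 bases) gave 725 of the 1481 of Ccnd2 and Ccnd2-207 (415 bases) 346. The main transcript Ccnd2-201 (6330 bases) gave 376, against 1112 for Ccnd1-201. The place of Cdk4 rests on short transcripts as well. In the same library Cdk4-201 (2053 bases) gave 260 of the 1226 of Cdk4. Cdk4-205 (950 bases) gave 316, Cdk4-208 (924 bases) 282 and Cdk4-209 (468 bases) 281. Ccnd3 followed at 140 and Cdkn2c, the Ink4 inhibitor p18Ink4c, at 111. The ranges of Ccnd3 (101 to 153) and Cdkn2c (78.3 to 123) overlapped, although Ccnd3 was above Cdkn2c within each of the 15 libraries.

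The remaining members were scarce. Medians per length were 11.4 for Cdkn2a, 11.2 for Cend1, 10.8 for Cdkn1b (p27Kip1), 5.89 for Cdkn1c (p57Kip2) and 3.70 for Cdk6. Cdkn2a, Cend1 and Cdkn1b changed places from library to library, with ranges of 8.50 to 15.9, 6.81 to 16.5 and 8.95 to 12.5. Cdk4 exceeded Cdk6 in every library, by between 219 and 1087 times, and the highest of these ratios belonged to shLINE_Orf1 replicate 1. The short transcripts of Cdk4 raise these ratios. Cdk6 has the longest exonic sequence of the members, 13989 bases, and its level in that library was 1.23, against 4.25 and 4.05 in the other shLINE_Orf1 libraries. The part of the length trend in that value was not tested. The inhibitor Cdkn1a (p21Cip1), which is no member, had a median level per length of 602, above every inhibitor that is one.

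**Figure D2:**
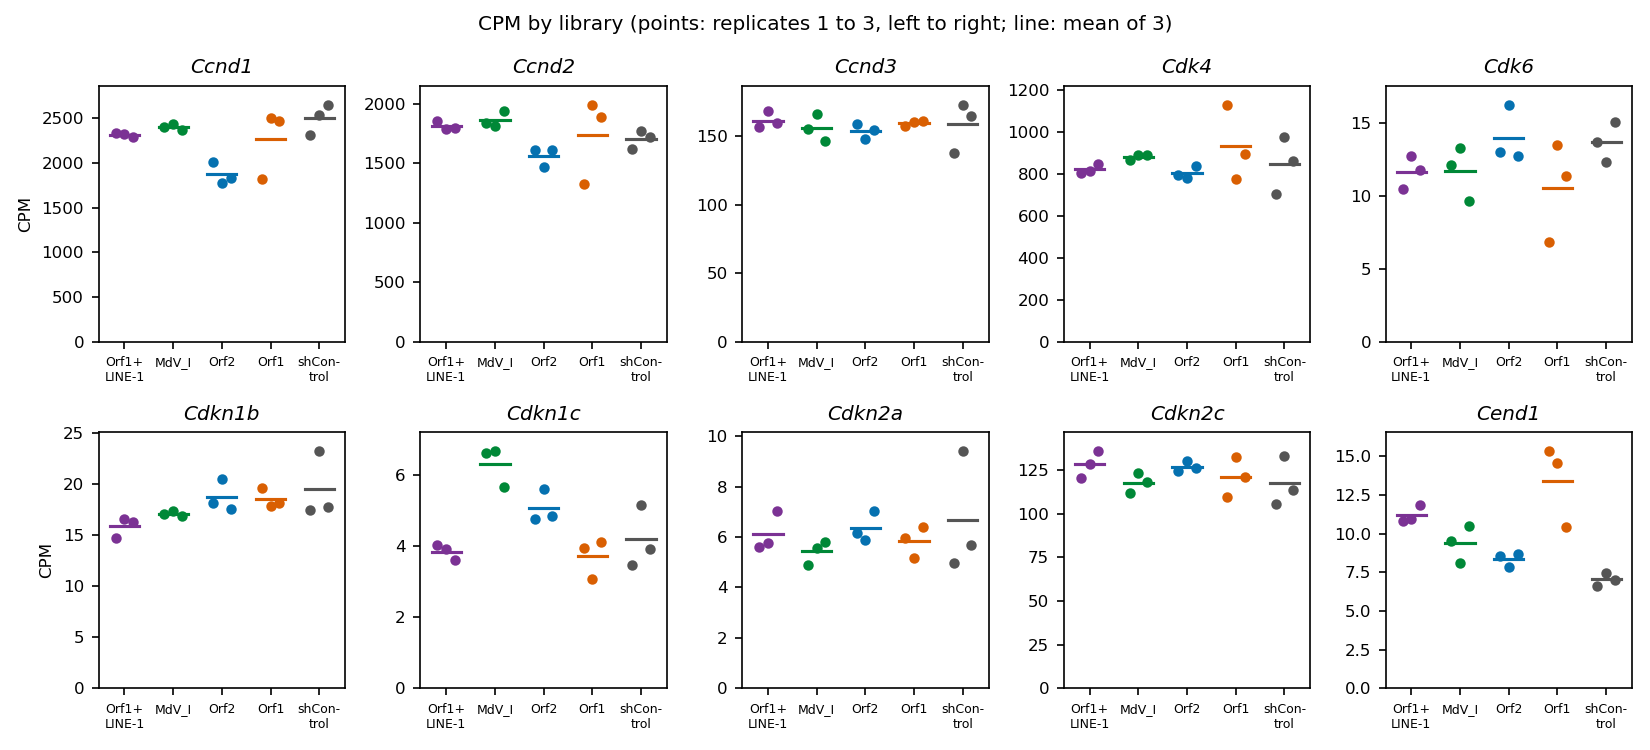
CPM of each gene in each library (points, replicates 1 to 3 from left to right) with the group mean as a line; each panel has its own axis from 0. Cend1 is lowest in shControl, Cdkn1c is highest in shLINE_MdV_I and Ccnd1 is lowest on average in shLINE_Orf2.

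The D-type cyclins come first among the values by group. Ccnd1 (cyclin D1, chr7:144929931-144939925, minus strand, GRCm38) was at 2013, 1771 and 1829 CPM in shLINE_Orf2, against 2313, 2537 and 2648 CPM in shControl. All shLINE_Orf2 libraries lay below all shControl libraries. The log2 fold change was -0.42 ± 0.11 (SE) in edgeR's quasi-likelihood test, with a Benjamini-Hochberg adjusted p of 0.226 over 15147 genes, so Ccnd1 did not pass the threshold of 0.05. It passed in DESeq2 (adjusted p = 0.0206), and without shLINE_Orf1 replicate 1 in the edgeR fit (adjusted p = 0.0136). Over 26 alternatives its adjusted p ranged between 0.000535 and 0.725, always with a lower level in shLINE_Orf2.

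The shLINE_Orf2 libraries were also set against groups other than shControl. Ccnd1 stood at 2400, 2438 and 2364 CPM in shLINE_MdV_I, all above the shLINE_Orf2 libraries (log2 fold change of shLINE_MdV_I over shLINE_Orf2 0.36 ± 0.11, adjusted p = 0.443 in edgeR's test). In shLINE_Orf1+LINE-1 it was at 2332, 2323 and 2290 CPM, again with no overlap (0.31 ± 0.11 over shLINE_Orf2, adjusted p = 0.383). These contrasts share the shLINE_Orf2 libraries with the one above and are not separate evidence. In shLINE_Orf1 the values were 1817, 2501 and 2468 CPM, where replicate 1, a library that stands apart, lay below the others.

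Ccnd2 (cyclin D2, chr6:127125162-127152193, minus strand) had the highest level per length of the D-type cyclins only with its short transcripts summed in. It was at 1858, 1787 and 1801 CPM in shLINE_Orf1+LINE-1 and at 1844, 1812 and 1941 CPM in shLINE_MdV_I. In shLINE_Orf2 it had 1611, 1469 and 1613 CPM and in shLINE_Orf1 1326, 1992 and 1894 CPM, against 1623, 1770 and 1726 CPM in shControl. The lowest value was that of shLINE_Orf1 replicate 1, which stands apart. All shLINE_Orf2 libraries lay below shControl by a narrow margin, while shLINE_Orf1+LINE-1 and shLINE_MdV_I lay above it. Its fold changes over the 10 pairs of groups ran from -0.15 to 0.25 (log2) and the smallest adjusted p was 0.554 in edgeR's test. Ccnd3 (cyclin D3, chr17:47505051-47599691, plus strand) varied least, between 138 and 173 CPM, with log2 fold changes from -0.06 to 0.07. On the opposite strand these loci overlap LTO1 (at Ccnd1), Bysl (at Ccnd3) and Tspan31 (at Cdk4), and antisense lncRNAs lie at Ccnd2, Cdk6 and Cdkn1c. The sources do not say whether strand was used, so reads in those overlaps cannot be told apart.

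**Figure D3:**
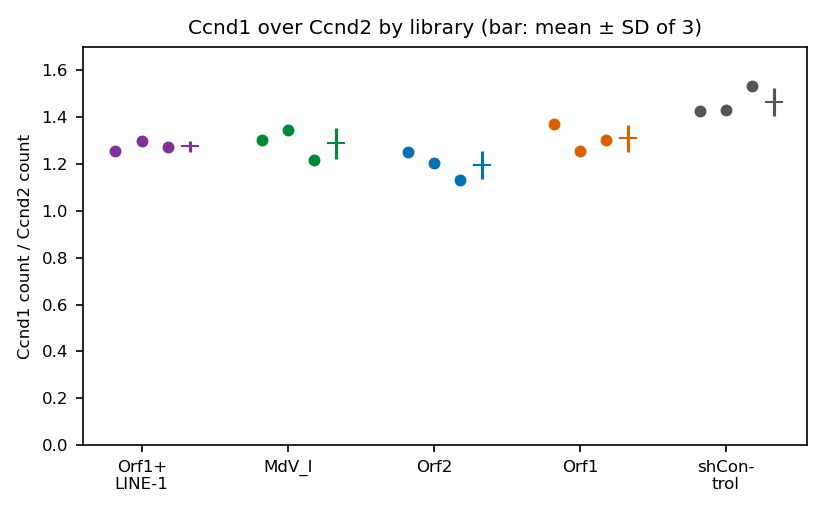
Count of Ccnd1 divided by the count of Ccnd2 in each library (points) with the mean and SD of the 3 libraries beside them. The 3 shControl libraries sit at 1.43 to 1.53, above all 12 others, which lie between 1.13 and 1.37.

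Ccnd1 and Ccnd2 were also compared with each other inside each library, a ratio of counts that no library scaling touches. This ratio was examined after the values had been seen. The exonic lengths differ, at 4709 bases for Ccnd1 and 9409 for Ccnd2, and the part of the length trend in the ratio was not tested. It was 1.26, 1.30 and 1.27 in shLINE_Orf1+LINE-1, 1.30, 1.35 and 1.22 in shLINE_MdV_I, 1.25, 1.21 and 1.13 in shLINE_Orf2 and 1.37, 1.26 and 1.30 in shLINE_Orf1, against 1.43, 1.43 and 1.53 in shControl. Every library outside shControl lay below every shControl library. The mean was lower than in shControl (1.46 ± 0.061, SD, n = 3) by 0.188 in shLINE_Orf1+LINE-1 (1.28 ± 0.023), by 0.176 in shLINE_MdV_I (1.29 ± 0.065), by 0.268 in shLINE_Orf2 (1.20 ± 0.059) and by 0.155 in shLINE_Orf1 (1.31 ± 0.058). Each of these 4 contrasts had a two-sided exact permutation p of 0.1, the smallest that 3 libraries against 3 allow, so none could pass 0.05. Values that do not overlap can give no other p, and the ratio was picked with them known, so nothing is read from it. How many other gene pairs part in this way was not counted. The 4 contrasts share the 3 shControl libraries. Without shLINE_Orf1 replicate 1 and shControl replicate 2 the differences were -0.204, -0.191, -0.283 and -0.200 in the same order. All 4 were larger in size, but leaving out shControl replicate 2 shifts the shControl mean that they share, so they are not separate evidence.

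As shares of the summed level per length of the 3 D-type cyclins, Ccnd1 made up 36.4% to 44.2%, Ccnd2 51.2% to 59.1% and Ccnd3 3.84% to 5.46% over all libraries. In shControl the Ccnd1 share was 44.2%, 41.2% and 43.0%. The transcript Ccnd1-201 held 96.6% of the gene's count and Ccnd2-201 74.9%. Most of the Ccnd2 level per length came from its short transcripts, as given above, so these shares are not shares of the main transcripts alone.

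The kinases showed no difference that passed. Cdk4 (chr10:127063534-127067920, plus strand) was at 803, 817 and 848 CPM in shLINE_Orf1+LINE-1, 869, 892 and 891 CPM in shLINE_MdV_I, 797, 782 and 838 CPM in shLINE_Orf2 and 1130, 779 and 897 CPM in shLINE_Orf1, against 706, 978 and 861 CPM in shControl. The lowest and the highest of the 15 values were in shControl and shLINE_Orf1, which overlapped all the other groups. Cdk6 (chr5:3341485-3531008, plus strand) lay between 6.81 CPM, in shLINE_Orf1 replicate 1, and 16.2 CPM, in shLINE_Orf2 replicate 2, and its smallest adjusted p over the 10 pairs was 0.436. Of the Cdk4 count, 21.5% was assigned to a transcript annotated for nonsense-mediated decay and 11.3% to 1 with a retained intron, so the gene's sum is not all coding mRNA.

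Cdkn1c (p57Kip2, chr7:143458339-143461050, minus strand), an imprinted inhibitor that binds cyclin and kinase complexes, had its highest levels in shLINE_MdV_I. There it was at 6.61, 6.66 and 5.65 CPM, against 3.46, 5.16 and 3.93 CPM in shControl. The other groups had 4.02, 3.91 and 3.60 CPM in shLINE_Orf1+LINE-1, 4.77, 5.61 and 4.84 CPM in shLINE_Orf2 and 3.95, 3.08 and 4.10 CPM in shLINE_Orf1. Each shLINE_MdV_I library lay above every library of the other 4 groups, and the closest were 5.65 CPM in shLINE_MdV_I and 5.61 CPM in shLINE_Orf2. The counts behind these levels are small, between 123 and 331 in a library.

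By edgeR's quasi-likelihood test the log2 fold change of Cdkn1c was 0.59 ± 0.17 in shLINE_MdV_I over shControl (adjusted p = 0.181), 0.76 ± 0.17 over shLINE_Orf1 (adjusted p = 0.0546) and 0.31 ± 0.17 over shLINE_Orf2 (adjusted p = 1). In shLINE_Orf1+LINE-1 it was -0.72 ± 0.17 relative to shLINE_MdV_I (adjusted p = 0.0754). None of these passed. DESeq2 called the gene against shControl (adjusted p = 0.0402), and so did edgeR without the libraries that stand apart, at a log2 fold change of 0.77 (adjusted p = 0.0206). Over 26 alternatives the adjusted p of that contrast ranged between 0.0108 and 0.514 with the same direction throughout.

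Markers of other cell types were read beside this. Of 8 listed neuronal genes 7 were tested. All 7 had positive log2 fold changes in shLINE_MdV_I over shControl, against 47.6% of all genes (median 0.60, against -0.01 over all genes). In that pair 1 of the 7 was called, against 0.594% of all genes. This was Snap25, a synaptic vesicle fusion gene, which rose to 7.76 ± 0.122 CPM in shLINE_MdV_I, against 4.37 ± 0.255 CPM in shControl (SD, n = 3 each; log2 fold change 0.83 ± 0.15, adjusted p = 0.0182 in edgeR's test). The summed level of the neuronal list was 441 to 468 CPM in shLINE_MdV_I and 340 to 521 CPM in shControl, so the sums overlapped. Map2 alone averaged 407 CPM in shLINE_MdV_I and 400 CPM in shControl, so these sums mostly follow that gene. Neurod1 was at 0.959 to 1.19 CPM in shLINE_MdV_I and at 0.365 to 0.967 CPM in shControl. All 7 neuronal genes were also positive over shLINE_Orf1 (median 0.69, 49.5% of all genes positive), and 1 was called (0.687% of all genes). All 7 were negative in shLINE_Orf1+LINE-1 relative to shLINE_MdV_I (median -0.67), where 49.7% of all genes were positive. Of 7 oligodendrocyte lineage genes 2 were called higher by edgeR in shLINE_MdV_I over shLINE_Orf1 (0.687% of all genes called), with 5 positive and 2 negative. Sox10 was 1 of the 2 called (log2 fold change 1.02 ± 0.22, edgeR adjusted p = 0.0477). It fell in shLINE_Orf1+LINE-1 relative to shLINE_MdV_I (-1.09 ± 0.22, edgeR adjusted p = 0.0289), the only 1 of the 7 called there (0.68% of all genes). Over shControl 5 of these 7 were positive in shLINE_MdV_I (median 0.35). Of all genes, 47.6% were positive in shLINE_MdV_I over shControl and 49.5% over shLINE_Orf1. An unadjusted p under 0.05 was found for 8.64% and 16.4% of all genes in these pairs. Of 6 astrocyte genes 1 was positive over shControl (median -0.16, 1 with an unadjusted p under 0.05) and 1 over shLINE_Orf1 (median -0.38, 4 with an unadjusted p under 0.05), with 0 called by edgeR in either. Of 5 proliferation genes 1 was positive over shControl (median -0.11, 0 with an unadjusted p under 0.05) and 1 over shLINE_Orf1 (median -0.26, 3 with an unadjusted p under 0.05), again with 0 called. Their summed levels overlapped, at 2384 to 2459 CPM in shLINE_MdV_I and 2202 to 2844 CPM in shControl for the astrocyte genes, and at 1633 to 1753 CPM in shLINE_MdV_I and 1629 to 1859 CPM in shControl for the proliferation genes. The astrocyte sums mostly follow Slc1a3, which averaged 2115 CPM in shLINE_MdV_I and 2154 CPM in shControl. The part of all these markers in the Cdkn1c values was not tested. In bulk RNA more cells of a type and more RNA per cell cannot be told apart.

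The other Kip gene, Cdkn1b (p27Kip1, chr6:134920401-134925513, plus strand), was at 14.7, 16.6 and 16.3 CPM in shLINE_Orf1+LINE-1, against 17.5, 23.2 and 17.7 CPM in shControl (log2 fold change -0.30 ± 0.12, adjusted p = 0.491 in edgeR's test). The shLINE_Orf1+LINE-1 libraries were the lowest and overlapped with no other group. In shLINE_MdV_I Cdkn1b was at 17.0, 17.4 and 16.9 CPM, also below all 3 shControl values, with a log2 fold change of -0.19 ± 0.12 (adjusted p = 0.759).

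Cdkn2a (chr4:89274471-89294653, minus strand) encodes p19Arf, which stabilises p53, from an upstream first exon and p16Ink4a, which blocks Cdk4 and Cdk6, from an internal one. Both transcripts share later exons. Of all Cdkn2a counts, 79.8% were assigned to Cdkn2a-202, which starts at 89294653 and corresponds to p19Arf, and 20.2% to Cdkn2a-201, which starts at 89282192 and corresponds to p16Ink4a. The Cdkn2a-202 share was between 68.8% and 92.2% in single libraries, and both extremes lay in shLINE_Orf1. Because the split rests on 206 to 435 counts and on a model that divides reads between shared exons, it is a description only.

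The start regions of these transcripts are shown because they are the parts of the locus that the transcripts do not share. They are RefSeq promoters on GRCm38.p6, from 250 bases before to 50 after the start, 5′ to 3′ on the minus strand, with matches to the E2F-type motif TTTNNCGC, searched on both strands, in capitals.
Cdkn2a upstream start, chr4:89294570-89294869: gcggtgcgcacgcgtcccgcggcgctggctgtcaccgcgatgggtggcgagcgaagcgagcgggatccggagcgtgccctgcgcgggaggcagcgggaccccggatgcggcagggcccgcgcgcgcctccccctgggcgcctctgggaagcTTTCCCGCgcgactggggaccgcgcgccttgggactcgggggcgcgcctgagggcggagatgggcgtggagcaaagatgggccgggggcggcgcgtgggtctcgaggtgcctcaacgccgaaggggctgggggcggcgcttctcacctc
Cdkn2a internal start, chr4:89282143-89282442: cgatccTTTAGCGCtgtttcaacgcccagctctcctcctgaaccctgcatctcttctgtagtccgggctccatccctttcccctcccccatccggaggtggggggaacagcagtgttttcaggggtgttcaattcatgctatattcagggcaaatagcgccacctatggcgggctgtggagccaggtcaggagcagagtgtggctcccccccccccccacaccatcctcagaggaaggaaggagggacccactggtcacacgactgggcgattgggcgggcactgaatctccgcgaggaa
The upstream window has 77.0% G and C and 45 CpG, and the internal window 60.3% and 12 CpG, against medians of 52.7% and 7 CpG over 32851 mouse promoters of the same length. Each holds 1 match, TTTCCCGC upstream and TTTAGCGC in the internal window, and 5.17% of all promoters hold at least 1. A match is a description of the letters and not a bound site. RefSeq entries were at hand for 7 of the 10 members (10 start sites), and besides these Cdkn2a windows only that of Cdk6 held a match.

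In total Cdkn2a was at 5.62, 5.75 and 7.02 CPM in shLINE_Orf1+LINE-1, 4.90, 5.58 and 5.82 CPM in shLINE_MdV_I, 6.16, 5.89 and 7.04 CPM in shLINE_Orf2 and 5.98, 5.16 and 6.40 CPM in shLINE_Orf1, against 4.96, 9.40 and 5.67 CPM in shControl. The highest value, in shControl replicate 2, came from a library that stands apart, and the groups overlapped apart from shLINE_MdV_I and shLINE_Orf2, which met at 5.82 and 5.89 CPM. Cdkn2c (chr4:109660876-109667189, minus strand), the abundant Ink4 gene, ran between 105 and 136 CPM with log2 fold changes of -0.11 to 0.13 over the 10 pairs. Cdkn2a and Cdkn2c had smallest adjusted p-values of 0.694 and 0.681.

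**Figure D4:**
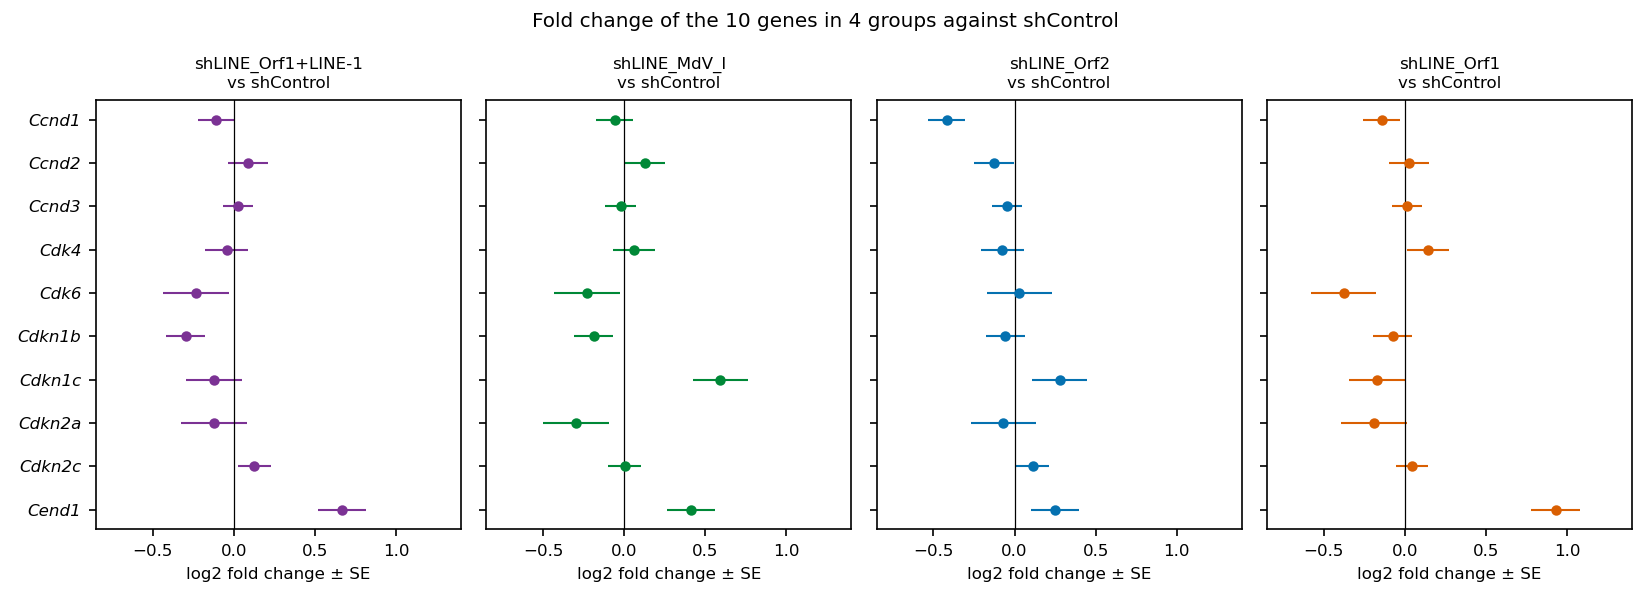
Log2 fold change (points) with its SE (bars) of each gene in 4 groups against shControl, from edgeR. Cend1 lies above 0 in all 4 panels, at 0.67, 0.41, 0.25 and 0.93 from left to right, Cdkn1c lies at 0.59 in shLINE_MdV_I and Ccnd1 at -0.42 in shLINE_Orf2; the panels share the shControl libraries.

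Cend1 (chr7:141426446-141429491, minus strand) had the largest log2 fold change of the members among the 10 pairs. It was at 15.3, 14.6 and 10.4 CPM in shLINE_Orf1, against 6.64, 7.48 and 7.02 CPM in shControl. This is the contrast that chose it, with a log2 fold change of 0.93 ± 0.15, and no test is drawn from it. The means of the other groups lay between, with 10.8, 10.9 and 11.8 CPM in shLINE_Orf1+LINE-1, 9.53, 8.12 and 10.5 CPM in shLINE_MdV_I and 8.52, 7.86 and 8.71 CPM in shLINE_Orf2. All 12 libraries outside shControl lay above the 3 shControl libraries.

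The log2 fold changes over shControl were 0.67 ± 0.15 in shLINE_Orf1+LINE-1, 0.41 ± 0.15 in shLINE_MdV_I and 0.25 ± 0.15 in shLINE_Orf2. They rest on the same shControl libraries by which the gene was chosen, so they are descriptions too. Relative to shLINE_Orf1 the log2 fold changes were -0.26 ± 0.15 in shLINE_Orf1+LINE-1, -0.52 ± 0.15 in shLINE_MdV_I and -0.68 ± 0.15 in shLINE_Orf2, which likewise use the libraries of the choice. Replicate 3 of shLINE_Orf1, at 10.4 CPM, was within the range of shLINE_MdV_I and below all shLINE_Orf1+LINE-1 libraries. The lower mean of shLINE_Orf1+LINE-1 than of shLINE_Orf1 thus rested on replicates 1 and 2 of shLINE_Orf1, and in limma-voom with quality weights its log2 fold change was 0.03.

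Contrasts between groups other than shControl and shLINE_Orf1 do not compare the libraries of that choice. Their tests still estimate the spread of the gene over all 15 libraries, and those with shLINE_Orf1+LINE-1 were added after the data had been seen. All shLINE_Orf1+LINE-1 libraries lay above all shLINE_Orf2 libraries in Cend1, with a log2 fold change of 0.42 ± 0.15 and an adjusted p of 0.340 in edgeR's quasi-likelihood test. They also lay above the shLINE_MdV_I libraries, at 0.26 ± 0.15 (adjusted p = 0.717), while shLINE_MdV_I over shLINE_Orf2 was 0.16 ± 0.15 (adjusted p = 1) with overlapping values. None of these 3 passed. The contrast of shLINE_Orf1+LINE-1 with shLINE_Orf2 passed when only those 6 libraries were fitted and in limma-voom, and its adjusted p ranged between 0.0176 and 0.809 over 26 alternatives.

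Cend1 is a low gene, with 309 to 604 counts in a library. Transcript Cend1-202 held 66.3% of the count, Cend1-204 21.5% and Cend1-203 12.2%, and the Cend1-202 share ran from 54.7% to 79.8% without separating the groups. Its RefSeq promoter is shown because Cend1 is the member with that largest fold change, on GRCm38.p6 from 250 bases before to 50 after the start at 141429562, 5′ to 3′ on the minus strand. That start lies upstream of those of all counted Cend1 transcripts, the nearest at 141429491, so the window holds no base of them.
Cend1 start, chr7:141429513-141429812: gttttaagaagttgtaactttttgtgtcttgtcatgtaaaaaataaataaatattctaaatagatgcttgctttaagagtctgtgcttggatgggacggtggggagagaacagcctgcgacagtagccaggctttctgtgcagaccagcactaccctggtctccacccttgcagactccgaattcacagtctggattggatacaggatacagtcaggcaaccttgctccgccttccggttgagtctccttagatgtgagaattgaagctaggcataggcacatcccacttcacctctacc
This window has 46.3% G and C and 5 CpG, below the medians of all promoters given above, and none of its letters are in capitals since TTTNNCGC was not found. No match says only that these letters are not in this window.

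The genes whose profile over the 15 libraries was most like that of Cend1, by the root mean square difference of centred log2 CPM among 9516 genes whose log2 CPM averaged 3 or more, were Gstt1 (0.12), a glutathione transferase, Ptgr1 (0.15), prostaglandin reductase, and Pcp4l1 (0.16), a gene related to Purkinje cell protein 4. The spread of Cend1 about its own mean was 0.35 on the same scale. Ranbp9 and Dyrk1b, whose products bind Cend1 in mouse, did not pass in any pair. Ranbp9 averaged 106 ± 37.9 CPM in shLINE_Orf1 and 135 ± 27.7 CPM in shControl (SD, n = 3 each), and Dyrk1b 5.42 ± 0.288 and 4.94 ± 0.788 CPM in these groups.

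**Figure D5:**
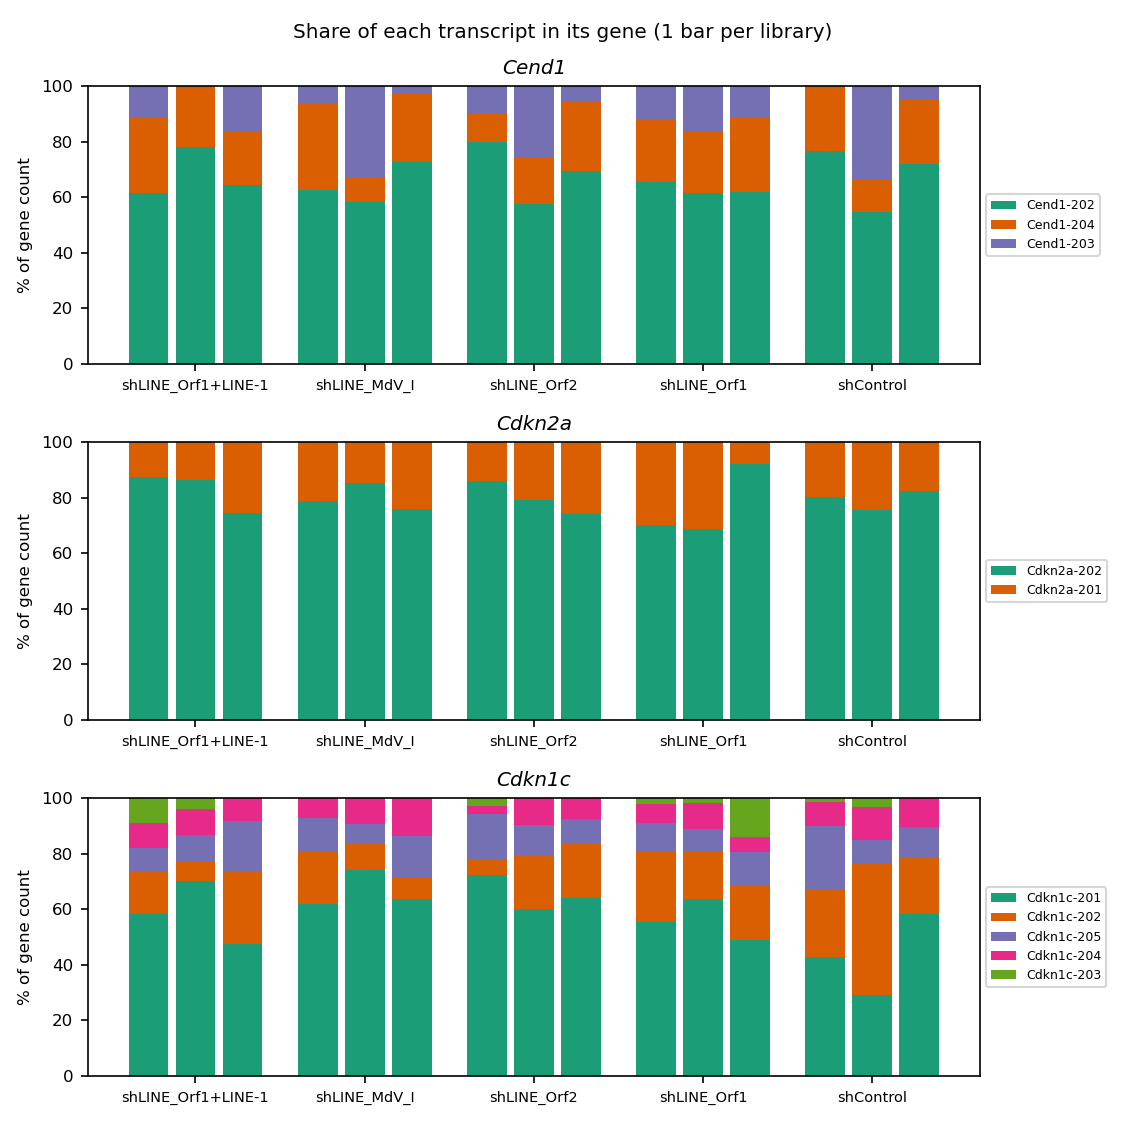
Share of each transcript in the count of its gene (percent, 1 stacked bar per library, replicates 1 to 3 within a group) for Cend1, Cdkn2a and Cdkn1c. Cdkn2a-202 holds 68.8% to 92.2% and Cend1-202 54.7% to 79.8%, and neither separates the groups; Cdkn1c-201 is lowest in shControl replicate 2, at 29.0%.

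A gene was called where its adjusted p was under 0.05. Across all 5 groups, 0.944% of genes tested were called by the quasi-likelihood F test (12% had an unadjusted p under 0.05), and Cend1 was the only member among them. That test holds the contrast by which Cend1 was chosen, so nothing is read from its call. For Cdkn1c the adjusted p was 0.0917, for Ccnd1 0.322, and for the other 7 between 0.547 and 0.966. DESeq2 called 3 members (Ccnd1, Cdkn1c and Cend1) and 6.28% of all genes, and limma-voom 4, with Ccnd2 added, and 9.92% of all genes. Shares for DESeq2 are of the genes to which it gave an adjusted p. Leaving out any of 9 libraries (shControl replicates 1 and 3, replicates 1 and 2 of shLINE_Orf2 and of shLINE_MdV_I, and all 3 of shLINE_Orf1+LINE-1) left 0 members called.

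The counts of calls against shControl were small. In shLINE_Orf1+LINE-1 0 of 10 were called by edgeR (0.139% of all genes), 2 had an unadjusted p under 0.05 (8.77% of all genes), and DESeq2 (1.56% of all genes) and limma-voom (3.56%) each called 1, which was Cend1. Nothing is read from these Cend1 calls, since they use the shControl libraries by which the gene was chosen. Cend1 is also 1 of the 2 members at an unadjusted p under 0.05, here and in shLINE_MdV_I, and nothing is read from that either. In shLINE_MdV_I 0 were called (0.594% of all genes), 2 had an unadjusted p under 0.05 (8.64%), and DESeq2 (2.02%) and limma-voom (2.52%) each called 1. In shLINE_Orf2 the count was also 0 (0.191% of all genes), with 1 at an unadjusted p under 0.05 (7%) and 1 called by each of DESeq2 (1.32%) and limma-voom (2.53%). In shLINE_Orf1 1 member, Cend1, was called (0.178% of all genes, and 10.5% at an unadjusted p under 0.05), also by DESeq2 (1.46%) and limma-voom (4.05%), from which nothing is read because the contrast chose it.

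Values that did not overlap between groups were counted in the same way, Cend1 included, although its choice rested on the shControl libraries. Against shControl this held for 3 of 10 members in shLINE_Orf1+LINE-1 (Cend1, Ccnd2 and Cdkn1b, against 16.8% of all genes), for 4 in shLINE_MdV_I (Cend1, Cdkn1c, Ccnd2 and Cdkn1b, 14.9%), for 3 in shLINE_Orf2 (Cend1, Ccnd1 and Ccnd2, 12%) and for Cend1 in shLINE_Orf1 (9.27%). The median log2 fold change of the members was -0.08, -0.01, -0.05 and -0.03 in these 4 contrasts, against -0.02 to -0.01 over all genes. The members thus had medians near 0, with single genes on either side.

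Relative to shLINE_Orf1, no gene at all was called in shLINE_Orf1+LINE-1 or in shLINE_Orf2 by edgeR (0% of genes in both). At an unadjusted p under 0.05 there were 0 members in shLINE_Orf1+LINE-1 (11.1% of all genes) and 3 in shLINE_Orf2 (11.4%). DESeq2 called 0 members in shLINE_Orf1+LINE-1 (0.132% of all genes) and 1 in shLINE_Orf2 (0.862%), and limma-voom 0 (2.62%) and 3 (5.53%). In shLINE_MdV_I 0 members were called against shLINE_Orf1 (0.687% of all genes), with 2 at an unadjusted p under 0.05 (16.4%), and DESeq2 called 2 (3.04%) and limma-voom 1 (11.1%). Where Cend1 is among the calls of these pairs, nothing is read from it, since its choice rested on the shLINE_Orf1 libraries. The same holds for the members at an unadjusted p under 0.05, where Cend1 is 1 of the 3 in shLINE_Orf2 and 1 of the 2 in shLINE_MdV_I. Non-overlapping values were found for 1, 2 and 2 members in shLINE_Orf1+LINE-1, shLINE_Orf2 and shLINE_MdV_I, against 17.4%, 14.2% and 19.2% of all genes.

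The last 3 pairs use neither shControl nor shLINE_Orf1. In shLINE_MdV_I over shLINE_Orf2, 7 of 10 members did not overlap (17.5% of all genes), with Ccnd1, Ccnd2, Cdk4 and Cdkn1c higher and Cdkn1b, Cdkn2a and Cdkn2c lower. None of the 10 was called by edgeR (0.112% of all genes), 1 had an unadjusted p under 0.05 (5.45%), DESeq2 called 0 (0.827%) and limma-voom 2 (3.4%). In shLINE_Orf1+LINE-1 over shLINE_Orf2, 6 did not overlap (26.5%), 0 were called (0.238%), 3 had an unadjusted p under 0.05 (9%), DESeq2 called 0 (1.77%) and limma-voom 5 (10.2%). In shLINE_Orf1+LINE-1 over shLINE_MdV_I, 5 did not overlap (27.2%), 0 were called (0.68%), 1 had an unadjusted p under 0.05 (8.49%), and DESeq2 (2.42%) and limma-voom (10.9%) each called 1.

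The authors' deposited table gives their own mixed model of a young LINE-1 effect with a p-value per gene. In the authors' deposited table the p-values of the 10 members run from 0.190 for Ccnd2 and 0.194 for Cend1 to 0.814 for Ccnd3, and all adjusted p-values are 1.

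Beside the members, 40 genes of the Rb and E2F pathway were followed. They hold cyclin E, Rb and replication genes that E2F factors switch on. Other Cdk inhibitors, such as Cdkn2b, and regulators of cyclins and kinases, such as Cdk7, Gsk3b and Ambra1, are among them. The counts below are therefore not counts of E2F targets alone. All 40 were tested in each pair, and edgeR made 1 call over the 10 pairs together. Cdc6, which loads the replicative helicase on DNA, rose to 66.2 ± 2.36 CPM in shLINE_Orf1+LINE-1, against 46.9 ± 2.23 CPM in shLINE_Orf2 (SD, n = 3 each; log2 fold change 0.50 ± 0.09, adjusted p = 0.0298). DESeq2 called 3 of the list in that pair (1.77% of all genes) and limma-voom 13 (10.2% of all genes), and 10 had an unadjusted p under 0.05 (9% of all genes). There 28 of the 40 were positive, against 48% of all genes, and 12 negative (median 0.12, log2). The call on Cdc6 was lost when any library of shLINE_Orf1+LINE-1 or of shLINE_MdV_I, or shLINE_Orf2 replicate 1 or 2, was left out, and with no filter or no scaling factor (adjusted p up to 0.215), while its log2 fold change stayed between 0.46 and 0.53.

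Against shControl, 26 of the 40 were positive in shLINE_Orf1+LINE-1 (median log2 fold change 0.12; 46.3% of all genes were positive), 27 in shLINE_MdV_I (0.06; 47.6%), 17 in shLINE_Orf2 (-0.05; 47.7%) and 24 in shLINE_Orf1 (0.04; 48.6%), with 0 called by edgeR in each. In shLINE_Orf1+LINE-1 9 had an unadjusted p under 0.05 (8.77% of all genes), DESeq2 called 3 (1.56%) and limma-voom 7 (3.56%). In shLINE_MdV_I these counts were 6 (8.64%), 2 (2.02%) and 4 (2.52%), in shLINE_Orf2 2 (7%), 0 (1.32%) and 1 (2.53%), and in shLINE_Orf1 4 (10.5%), 0 (1.46%) and 2 (4.05%). The smallest p in shLINE_Orf1+LINE-1 belonged to Ccne1 (cyclin E1), at 97.0 ± 3.60 CPM against 73.0 ± 4.12 CPM in shControl (SD, n = 3 each; log2 fold change 0.41 ± 0.08, edgeR adjusted p = 0.0814), and on the negative side to Fbxo4 (-0.22 ± 0.12, adjusted p = 0.654). In shLINE_MdV_I it belonged to Cdkn2b, the Ink4 inhibitor next to Cdkn2a, at 29.3 ± 2.12 CPM against 20.1 ± 2.29 CPM in shControl (0.54 ± 0.14, edgeR adjusted p = 0.124), and on the negative side to cyclin E2 (Ccne2, -0.55 ± 0.19, adjusted p = 0.352). Rbl2, the Rb relative p130, had the smallest in shLINE_Orf2 (0.47 ± 0.17, adjusted p = 0.479), with the helicase gene Mcm5 on the negative side (-0.24 ± 0.10, adjusted p = 0.587). In shLINE_Orf1 these genes were Cdkn2b (0.39 ± 0.14, adjusted p = 0.377) and the kinase gene Gsk3b, whose product phosphorylates cyclin D1 (-0.34 ± 0.16, adjusted p = 0.468).

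Relative to shLINE_Orf1, 23 of the 40 were positive in shLINE_Orf1+LINE-1 (49.1% of all genes), 20 in shLINE_MdV_I (49.5%) and 17 in shLINE_Orf2 (51.5%), with 0 called by edgeR or DESeq2 in each. In shLINE_Orf1+LINE-1 12 had an unadjusted p under 0.05 (11.1% of all genes) and limma-voom called 3 (2.62%), in shLINE_MdV_I 11 (16.4%) and 4 (11.1%), and in shLINE_Orf2 7 (11.4%) and 5 (5.53%). Cdc6 led in shLINE_Orf1+LINE-1 (log2 fold change 0.32 ± 0.09, edgeR adjusted p = 0.422), with Cdkn2d, the inhibitor p19Ink4d, on the negative side (-0.27 ± 0.11, adjusted p = 0.422). The N-Myc gene Mycn (0.71 ± 0.24, adjusted p = 0.218) and Cdk7 (-0.41 ± 0.12, adjusted p = 0.175), a kinase that activates other Cdks, led in shLINE_MdV_I. In shLINE_Orf2 these were Ambra1 (0.32 ± 0.15, adjusted p = 0.434), which directs D-type cyclins to degradation, and the E2F partner Tfdp1 (-0.31 ± 0.10, adjusted p = 0.386). In the last 2 pairs 0 of 40 were called by edgeR. For shLINE_MdV_I over shLINE_Orf2, 29 were positive (47.9% of all genes), 4 had an unadjusted p under 0.05 (5.45%), and DESeq2 called 0 (0.827%) and limma-voom 3 (3.4%). The smallest p in each direction belonged to Cdc6 (0.31 ± 0.09, adjusted p = 0.379) and E2f5 (-0.21 ± 0.13, adjusted p = 1). For shLINE_Orf1+LINE-1 over shLINE_MdV_I, 28 were positive (49.7% of all genes), 7 had an unadjusted p under 0.05 (8.49%), and DESeq2 called 2 (2.42%) and limma-voom 13 (10.9%). On either side the smallest p belonged to Rrm2, a ribonucleotide reductase subunit (0.32 ± 0.09, adjusted p = 0.138), and Cdkn2b (-0.41 ± 0.14, adjusted p = 0.300).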

How the data were processed

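Sorted cells were lysed in TRIZOL and their RNA amplified by a SMART-seq2-type protocol, per the labels' protocols. The authors deposited expected counts (estimated read counts, not whole) per transcript; the submitters' processing notes name mm10, cutadapt and RSEM with no role or version. Of 111462 transcripts, 110203 were assigned to 34989 genes of GENCODE M21 (GRCm38, the build that mm10 names); 1259 others, 0.583% to 0.637% of counts per library, and 1 blank row were left out. Counts were summed per gene and rounded to whole numbers.

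Genes were filtered with filterByExpr of edgeR at a minimum count of 10, libraries were scaled with TMM, and edgeR 4.0.16 (quasi-likelihood, robust; R 4.3.3) fitted a group mean per gene over the 15 libraries. CPM are counts per 1000000 of the scaled size, and fold changes are log2. Each pair was a contrast, with Benjamini-Hochberg adjustment over 15147 genes and a threshold of 0.05. The common biological coefficient of variation was 0.158. Alternatives included DESeq2 1.42.0 and voom with quality weights of limma 3.58.1. The fit was tested on simulated data. A second table holds p-values and adjusted p-values of the authors' deposited mixed model. Its estimates, deposited as scores on a scale that the file headers do not name, were not used.

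All 10 members were named whatever their result, as was each pathway gene called or, where none was, the one with the smallest p in each direction, and the 3 genes most like Cend1 in profile. Members and lists were chosen with earlier results of these data known. The ratio of Ccnd1 to Ccnd2 and the contrasts of shLINE_Orf1+LINE-1 with shLINE_Orf2 and with shLINE_MdV_I were added after the data had been seen. Shares and levels at this depth carry counting error besides the spread between libraries.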

Additional observations from a re-analysis of the deposited data

How the results depend on the processing

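Nothing is read from calls of Cend1 in the test over 5 groups or in pairs with shControl or shLINE_Orf1, by whose libraries it was chosen. The number of members called in any of the 5 groups was 1 (Cend1). It was 3 with DESeq2, 4 with limma-voom, 4 without the 2 libraries that stand apart, and between 0 and 2 with 1 library left out. For shLINE_Orf1 against shControl the count was 1, and it was 0 when only the compared groups were fitted and between 0 and 1 with 1 library left out (0 without shControl replicate 1 or 3). For shLINE_Orf2 against shControl the 0 became 1 (Ccnd1) with DESeq2, with limma-voom and without the 2 libraries that stand apart, and lay between 0 and 1 with 1 library left out. For shLINE_MdV_I against shControl it became 1 (Cdkn1c) under the same 3 settings. For shLINE_Orf1+LINE-1 against shControl it became 1 (Cend1) under these 3 and lay between 0 and 1 with 1 library left out (1 without shLINE_Orf1 replicate 1). For shLINE_Orf2 against shLINE_Orf1 it became 1 with DESeq2, 3 with limma-voom and 1 without the 2 libraries. For shLINE_MdV_I against shLINE_Orf1 it became 1 with no scaling factor, 2 with DESeq2, 1 with limma-voom, 2 with the last number of the sample description as covariate, 1 without the 2 libraries, and between 0 and 1 with 1 library left out (1 without shControl replicate 1 or 2, or shLINE_Orf1 replicate 3). For shLINE_MdV_I against shLINE_Orf2 it became 2 with limma-voom, 1 without the 2 libraries, 1 with only the compared groups, and between 0 and 1 with 1 library left out (1 without shLINE_Orf1 replicate 1). For shLINE_Orf1+LINE-1 against shLINE_Orf2 it became 5 with limma-voom, 1 without the 2 libraries and 3 with only the compared groups. For shLINE_Orf1+LINE-1 against shLINE_MdV_I it became 1 (Cdkn1c) with DESeq2, limma-voom, without the 2 libraries and with only the compared groups, and lay between 0 and 1 with 1 library left out (1 without shControl replicate 2 or shLINE_Orf1 replicate 1). The log2 fold change of Cend1 in shLINE_Orf1+LINE-1 relative to shLINE_Orf1 changed sign, to 0.0283, with limma-voom. The cause of these differences was not tested, beyond the fewer libraries that some settings hold. With the replicate number as a block, 0 members were called in any of the 5 groups and 0 in shLINE_Orf1 against shControl, and the adjusted p of Cdc6 was 0.0522. Same-numbered libraries did not deviate together more than others did. Correlations were above 0.1 in 3 of 30 same-numbered pairs and in 10 of 60 others, and 4 of 15 libraries correlated best with their own number. Such correlations cannot tell whether same-numbered libraries shared a culture or batch, so whether the numbers pair the samples is not known. The settings without the 2 libraries that stand apart were chosen after the data had been seen. Cdkn1c, Cend1, Cdkn2a and Cdk6 rest on at most 806 counts in a library, which limits what these data can resolve for them.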
